A study of Rattus norvegicus with 10 samples.

Results

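The thyroid hormone genes examined in these fetal rat hearts were 2 nuclear receptors, Thra and Thrb, 2 deiodinases, Dio2 and Dio3, and the membrane transporter Slc16a10. They were taken by symbol from the deposited table, and all 5 were found among its 18025 genes, 4 of them with enough signal to test. The hearts were collected at embryonic day 19.5 from wild-type Sprague-Dawley pregnancies. In the hyperglycemia (HG) group the dams had been injected with streptozotocin, a toxin of the insulin-producing pancreatic cells, on 3 consecutive days, and in the control (CON) group with citric acid buffer only. By the methods injections followed mating, whereas the introduction of the study places the induced hyperglycemia before pregnancy. Parents of both groups were wild-type rats of 3 months. Each group had 5 mRNA libraries, and neither the dam nor the sex of each fetus is given in the labels. Fetuses of 1 dam may therefore stand as separate libraries, and p-values measure the spread between libraries only. The methods speak of pooled RNA, whereas the table gives each library a column of its own. A figure legend of the study names isolated cardiomyocytes for this comparison, whereas the labels and methods name hearts. Levels are in FPKM, reads scaled by gene length and by the reads of the library, so that genes can be compared per length.

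Thyroid hormone reaches the cell mainly as thyroxine, which must cross the membrane through carriers such as Slc16a10 (MCT10). Inside the cell Dio2 converts thyroxine to the active triiodothyronine, and Dio3 inactivates both. Triiodothyronine binds the receptors Thra and Thrb, which sit on DNA with retinoid X receptors and exchange corepressors for coactivators when the hormone binds. In the heart Thra is the predominant receptor, and the rise of the hormone around birth is known for driving the maturation of cardiac muscle, such as the change from β- to α-myosin.

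Library depth was similar in both groups, with 17639895 to 18240006 reads on genes in CON and 16672876 to 19109844 in HG. The markers of cardiac muscle were abundant in each library, with summed levels of 23506.2 to 24858.9 FPKM in CON and 18730.4 to 21787.6 FPKM in HG, and 5 of these 8 markers were lower in HG. Markers of red cell precursors were also lower, 4 of 5, with sums of 6988.7 to 12527.7 FPKM in CON and 5163.5 to 7246.3 FPKM in HG. With median-of-ratios factors 6 cardiac markers were lower and after quantile normalization 3. Of 5 macrophage markers, 3 were higher, with sums of 25.4 to 31.6 FPKM in CON and 30.4 to 40.1 FPKM in HG. Under either other scaling 2 macrophage markers were higher. The shares over all genes tested were 28.4% higher and 11.8% lower as reported. The part of these shifts in the values below was not tested, and in whole hearts fewer cells of a type cannot be told apart from less RNA per cell. Thyroid gland was near 0, since 4 of its 5 listed markers lay under 0.1 FPKM on average and the sum of all 5 did not exceed 0.397 FPKM in any library. The other lists fixed for this check, of fibroblasts (2 of 6 higher and 2 lower), endothelium (1 of 5 higher), epicardium (1 of 4 lower), brown fat (1 tested, lower), skeletal muscle (1 of 4 higher and 1 lower) and thymus (1 of 2 higher), gave few calls or calls in both directions. Liver markers moved one way, with 3 of 5 lower and 0 higher and a median log2 fold change of -1.68. With median-of-ratios factors fibroblasts had 2 higher and 4 lower and endothelium 0 higher and 1 lower. Liver then had 2 lower, and thymus had 0 higher and 0 lower.

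The members spanned a wide range of levels. Thra was at 56.7 FPKM on average over the 10 libraries, above 91.3% of the genes tested, and Slc16a10 at 5.18 FPKM, above 42.5% of them. Thrb, at 0.155 FPKM, and Dio2, at 0.115 FPKM, were among the lowest genes tested, and Dio3, at 0.0116 FPKM, was under the limit of 0.1 FPKM below which a gene was taken as absent. The order Thra, Slc16a10, Thrb and Dio2, Dio3 held in 10 of 10 libraries, except that Thrb lay above Dio2 in 6 of 10 only. The order of these neighbours thus varied between libraries, and their difference was not tested.

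**Figure D1:**
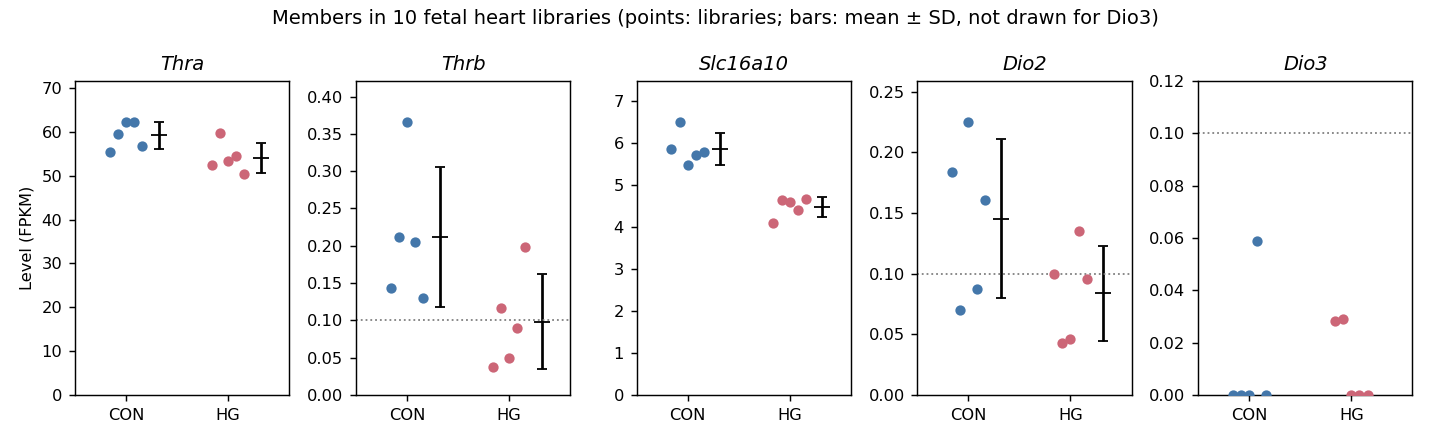
Levels in FPKM (vertical axes, from 0) of the 5 members in each of 5 CON and 5 HG libraries (points), with the mean and SD beside them except for Dio3; the dotted line marks 0.1 FPKM. The HG libraries lie below all CON libraries for Slc16a10, and the groups overlap for the other 4 members.

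The 4 members that averaged 0.1 FPKM or more were tested with limma on log2(FPKM + 0.1), a scale that understates the change of low genes. Of these, 2 passed an adjusted p under 0.05, Thra and Slc16a10, both lower in HG, against 40.1% of the 14542 genes tested in either direction and 11.8% lower. On this scale no member reached the 2-fold limit that the study set beside the adjusted p, which 1.94% of genes tested passed. Thrb averaged 0.211 FPKM in CON and 0.0983 FPKM in HG. With voom on reads recovered from the FPKM steps it passed both limits (log2 fold change -1.22, adjusted p = 0.0262).

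Among the receptors, Thra (NCBI Gene 81812) was at 55.5, 59.6, 62.3, 62.2 and 56.9 FPKM in CON replicates 1 to 5. The HG replicates were at 52.4, 59.7, 53.3, 54.5 and 50.5 FPKM. All but HG replicate 2 lay below the lowest CON library, and that library was level with CON replicate 2. The means were 59.3 ± 3.06 FPKM for CON against 54.1 ± 3.45 FPKM for HG (SD over 5 libraries). On the log2 scale the difference was -0.13 (standard error 0.0497, adjusted p = 0.0486, limma), a fitted HG level 0.912 times that of CON. This call was close to the threshold and was lost in 7 of the 10 fits that left out 1 library, with adjusted p of 0.0799, 0.111 and 0.109 without CON replicates 2, 3 and 4, and of 0.0985, 0.0915, 0.069 and 0.107 without HG replicates 1, 3, 4 and 5. With median-of-ratios factors in place of the authors' library sizes the log2 fold change was -0.22 (adjusted p = 0.00685). The value sums the transcripts of the gene, among them a splice form known not to bind the hormone, so that these forms cannot be told apart.

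Thra shares bases with a neighbour at each end in the RefSeq annotation, 467 with Med24, a Mediator subunit, and 1061 with Nr1d1, the clock repressor on the other strand. The libraries were stranded, but the strand setting of the counting is not given in the sources used here, so reads in these overlaps are uncertain. Nr1d1 was at 3.41 ± 0.516 FPKM for CON against 3.59 ± 0.451 FPKM for HG (SD over 5 libraries; log2 fold change 0.08, adjusted p = 0.6, limma). Med24 was higher in HG, at 24.8 ± 0.905 against 21.1 ± 1.09 FPKM (0.23 on the log2 scale, adjusted p = 0.0017, limma). Nr1d1 was uncalled and Med24 called higher under both other scalings, where the log2 value of Nr1d1 was -0.01 and -0.03.

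Thrb (24831), the receptor that predominates in liver and pituitary, was at 0.143, 0.212, 0.366, 0.205 and 0.13 FPKM in CON replicates 1 to 5. In HG it was at 0.0375, 0.117, 0.0496, 0.0894 and 0.198 FPKM. HG replicates 1 to 4 lay under all CON libraries, and replicate 5 lay among them, so the groups overlapped. These levels rest on 16 to 45 reads a library for CON and 5 to 23 for HG. Summed over libraries, 132 reads were found in CON (95% exact Poisson interval 110.0 to 157.0) and 60 in HG (45.8 to 77.2), intervals that cover counting error only. On the log2 scale the difference was -0.66 (standard error 0.27, adjusted p = 0.0698, limma), which missed the threshold. With voom on reads recovered from the FPKM steps it was -1.22 (adjusted p = 0.0262), after quantile normalization -0.77 (adjusted p = 0.0406), with array weights -0.76 (adjusted p = 0.0363), and without HG replicate 5 -0.82 (adjusted p = 0.0294). Its size also followed the pseudocount, at -0.14 with 1 FPKM added. RefSeq lays several noncoding genes over Thrb, so its few reads are uncertain too. The mean of HG was under 0.1 FPKM, so the gene passed the filter through its CON level.

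Per library, Thrb made up 0.227 to 0.584% of the summed FPKM of both receptors in CON (median 0.329%) and 0.0716 to 0.391% in HG (median 0.164%). The log2 ratio of Thrb to Thra, with 0.1 FPKM added to each, was -7.62 ± 0.344 for CON against -8.15 ± 0.459 for HG (SD over 5 libraries; two-sided exact permutation test, p = 0.0873). The difference of -0.53 missed the threshold. Without HG replicate 5 it was -0.71 (exact permutation p = 0.0159), and it followed the pseudocount, at -0.01 with 1 FPKM added to each gene and -1.0 with 0.01 FPKM (exact permutation p = 0.0635). Thra exceeded Thrb in 10 of 10 libraries.

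Slc16a10 (170566), which carries aromatic amino acids as well as iodothyronines, was the member that parted the groups. It was at 5.86, 6.51, 5.49, 5.72 and 5.8 FPKM in CON replicates 1 to 5. The HG replicates were at 4.11, 4.66, 4.59, 4.42 and 4.68 FPKM. Every HG library lay below every CON library, which was so for 8.12% of all genes tested. The means were 5.88 ± 0.379 FPKM for CON against 4.49 ± 0.237 FPKM for HG (SD over 5 libraries), from 714 to 875 reads a library for CON and 575 to 632 for HG. The log2 fold change was -0.38 (standard error 0.0631, adjusted p = 0.000585, limma), a fitted HG level 0.769 times that of CON. Over 22 alternative fits it stayed between -0.48 and -0.32, with adjusted p of 9.49e-05 to 0.00364.

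The start-site windows of the members that passed the test are shown because the receptors act on DNA at the half-site AGGTCA. Windows run from 250 bases before to 50 after an annotated start, as given in RefSeq (GRCr8, another build than the mRatBN7.2 named by the submitters), 5′ to 3′ on the strand of the gene, with the half-site in capitals. The Slc16a10 window is chr20:45122309-45122608 on the minus strand, and the first of 2 Thra windows is chr10:84197891-84198190 on the plus strand.
Slc16a10: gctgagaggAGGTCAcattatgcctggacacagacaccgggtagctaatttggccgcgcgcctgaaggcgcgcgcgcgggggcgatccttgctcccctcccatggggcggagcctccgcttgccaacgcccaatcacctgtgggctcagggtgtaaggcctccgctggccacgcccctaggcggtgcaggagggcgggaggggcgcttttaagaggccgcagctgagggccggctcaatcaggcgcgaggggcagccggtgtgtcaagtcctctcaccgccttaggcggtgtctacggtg
Thra: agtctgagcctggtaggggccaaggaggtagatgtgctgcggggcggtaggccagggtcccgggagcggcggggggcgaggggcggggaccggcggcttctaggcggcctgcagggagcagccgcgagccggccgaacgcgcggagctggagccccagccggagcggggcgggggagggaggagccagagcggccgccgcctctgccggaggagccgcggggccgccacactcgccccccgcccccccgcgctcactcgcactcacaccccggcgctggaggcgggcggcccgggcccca
Slc16a10 holds 1 half-site on either strand, starting 241 bases before the start. The 2 windows of Thra and those of Thrb, Dio2 and Dio3 hold 0. Of 33469 windows of this length in the table, 16.2% hold at least 1, and the paired form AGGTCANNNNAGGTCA was found in 2 of them, neither of a member. A match describes these letters only.

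Among the deiodinases, Dio2 (65162) was at 0.184, 0.0696, 0.225, 0.0872 and 0.161 FPKM in CON replicates 1 to 5. In HG it was at 0.0996, 0.0432, 0.0457, 0.135 and 0.0952 FPKM. The ranges overlapped, and 4 HG libraries and 2 CON libraries were under 0.1 FPKM. The levels rest on 8 to 25 reads a library for CON and 5 to 15 for HG, in sum 82 (95% exact Poisson interval 65.2 to 102.0) and 47 (34.5 to 62.5). The log2 fold change was -0.40 (standard error 0.25, 95% interval -0.94 to 0.14, adjusted p = 0.226, limma), which missed the threshold given the spread between libraries. The value ranged from -0.76 with voom on recovered reads to -0.08 with 1 FPKM added, none of them called. As with Thrb, the gene passed the filter through its CON level.

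Dio3 (29475) was taken as absent. It had 2 reads in CON replicate 4 (0.059 FPKM), 1 read in HG replicate 1 (0.0281 FPKM), 1 in HG replicate 2 (0.0292 FPKM) and 0 in the other 7 libraries. A count of 0 allows up to 3 reads, which is 0.0843 to 0.0966 FPKM by library, and no library exceeded this limit. The hepatic deiodinase Dio1 had 4 reads in all CON libraries together and 0 in HG. The log2 ratio of Dio2 to Dio3, with 0.1 FPKM added to each, was 1.12 ± 0.605 for CON against 0.71 ± 0.414 for HG (SD over 5 libraries; exact permutation p = 0.238). With Dio3 at 0 in 7 libraries this difference of -0.41 followed the pseudocount, at -0.08 with 1 FPKM and -0.94 with 0.01 FPKM added, and it ran from -0.63 to -0.27 with 1 library left out.

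Dio3 lies at one end of the imprinted Dlk1-Dio3 region, from which Dlk1 and Rtl1, and the neighbouring Begain, were also listed. Dlk1 (114587), a Notch-like growth regulator expressed from the paternal copy, fell from 27.3 ± 4.26 FPKM (CON) to 14.2 ± 3.56 FPKM (HG) (SD over 5 libraries; -0.96 on the log2 scale with a standard error of 0.164, adjusted p = 0.000694, limma), with no overlap of the groups. All HG libraries lay below all CON libraries in 8.12% of the genes tested. Rtl1, a retrotransposon-like gene also expressed from the paternal copy, was under the filter, with 2 to 10 reads a library for CON and 0 to 2 for HG. Begain, a neighbour of Dlk1, was at 0.941 ± 0.0672 and 0.996 ± 0.178 FPKM (adjusted p = 0.739, limma). Of the 4 genes tested at the loci of members, 1 was higher (Med24) and 1 lower (Dlk1).

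The other genes of thyroid hormone action went in both directions. Of 33 listed by role, 28 were tested, of which 11 were higher in HG (39.3%), 4 lower (14.3%) and 13 did not pass, with a median log2 fold change of 0.05. Over all genes tested, 28.4% were higher and 11.8% lower, with a median of 0.09. This split moved with the scaling: median-of-ratios factors gave 6 higher and 7 lower, and quantile normalization 7 and 8. Of all genes called, 70.7% were higher as reported, but 47.1% after median-of-ratios and 53.0% after quantile scaling, with median log2 fold changes over all genes of 0.01 and 0.02.

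Of the other carriers reported here, 2 of 3 tested were higher, against 28.4% of all genes tested. These were Slc3a2 (50567) and Slc7a5, the heavy and light chains of an exchanger of large amino acids and iodothyronines. Slc3a2 rose from 24.9 ± 1.66 to 31.4 ± 3.19 FPKM (SD over 5 libraries; log2 fold change 0.33, adjusted p = 0.00256, limma), and Slc7a5, singled out after its values were seen, from 9.49 ± 0.416 to 11.9 ± 1.44 FPKM (0.31 on the log2 scale, adjusted p = 0.00474). Both stayed higher under both other scalings. Slc7a8 (log2 fold change -0.20) passed after quantile normalization, and Slco1c1, Slco1a4 and Slc10a1 were under the filter.

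For deiodination, 2 of 7 genes tested were higher (28.6%, against 28.4% of all genes tested) and 0 lower. Wsb1 (303336), the substrate adaptor of an enzyme that marks Dio2 protein for degradation, rose from 32.8 ± 1.88 to 51.0 ± 5.03 FPKM (SD over 5 libraries; log2 fold change 0.63, adjusted p = 2.39e-05, limma). Its HG libraries, from 44.0 to 55.9 FPKM, lay above the CON libraries, from 30.4 to 34.9 FPKM, as in 19.3% of the genes tested. The second was Sephs2, which makes the selenium donor of selenoproteins (0.27 on the log2 scale, adjusted p = 0.00278), singled out after its values were seen. Usp20, Usp33 and Marchf6, which also act on Dio2 protein, did not pass. Under either other scaling 2 were higher and 1 lower.

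Both hormone binding proteins tested were lower in HG, against 11.8% of all genes tested. Crym (117024), which binds triiodothyronine in the cytosol, fell from 3.1 ± 0.622 to 1.99 ± 0.464 FPKM (SD over 5 libraries; log2 fold change -0.63, adjusted p = 0.0108, limma). Ttr (24856), a carrier of thyroxine in plasma that is made in liver, fell from 3.07 ± 1.96 to 0.828 ± 0.305 FPKM (-1.67 on the log2 scale, adjusted p = 0.00168). Ttr is also 1 of 5 liver markers, whose sum was 3.08 to 55.8 FPKM in CON and 1.33 to 2.6 FPKM in HG, and CON replicate 3 held the highest Ttr (6.5 FPKM) and the highest albumin (Alb, 34.9 FPKM). Without that library the log2 fold change of Ttr was -1.36 (adjusted p = 0.00131), with 1 FPKM added it was -1.06, and the part of liver RNA in it was not tested.

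The nuclear partners changed little in size. Rxra (25271) fell from 18.9 ± 0.675 to 16.8 ± 1.28 FPKM (SD over 5 libraries; log2 fold change -0.17, adjusted p = 0.0232, limma). The call on Rxra was lost without CON replicate 3 (adjusted p = 0.055), CON replicate 4 (0.0534) or HG replicate 4 (0.0509). Rxrb and Rxrg were not called. Of 7 coactivators, 3 were higher and 1 lower, the acetyltransferase gene Kat2b (301164), at -0.23 on the log2 scale (adjusted p = 0.00208). Under either other scaling 1 coactivator was higher and 2 were lower. Of 6 corepressors, 4 were higher and 0 lower, but 1 higher and 1 lower with median-of-ratios factors and 2 and 1 after quantile normalization. Beside both lists, 28.4% of all genes tested were higher as reported and 11.8% lower. Tbl1xr1 (365755), a subunit of the NCoR complex, rose from 6.97 ± 0.648 to 8.9 ± 0.605 FPKM (SD over 5 libraries; log2 fold change 0.35, adjusted p = 0.00235).

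**Figure D2:**
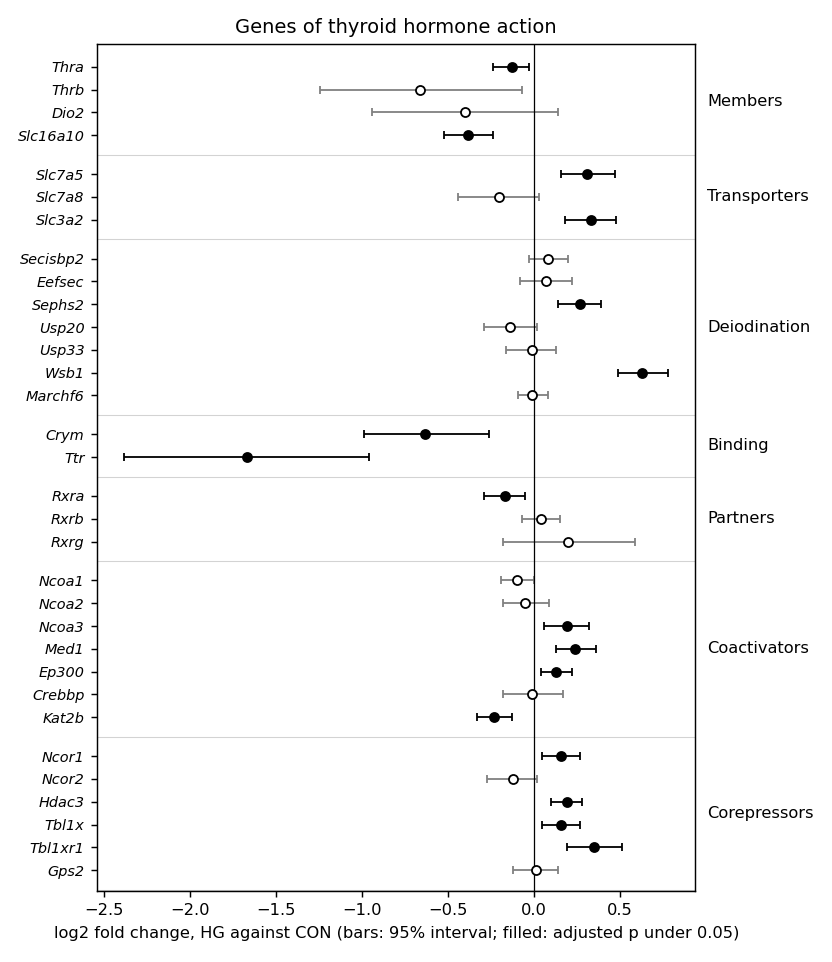
Log2 fold change of HG against CON (horizontal axis) with its 95% interval for the 4 members and the 28 other genes of thyroid hormone action tested, grouped by role; filled points have an adjusted p under 0.05. Slc16a10 lies at -0.38 and the other carriers Slc7a5, Slc3a2 and Slc7a8 at 0.31, 0.33 and -0.2.

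Genes known as targets of the hormone were set beside the receptors. Of 19 tested genes known to be induced by thyroid hormone, 7 were lower in HG (36.8%), 3 higher (15.8%) and 9 did not pass, with a median log2 fold change of -0.11. Over all genes tested, 11.8% were lower and 28.4% higher. Of 5 known to be repressed in heart, 4 were also lower and 0 higher, with a median of -0.42. Both kinds held more lower than higher calls, also with median-of-ratios factors (induced 9 lower and 2 higher, repressed 5 and 0) and after quantile normalization (8 and 2, 4 and 0). Many of them are genes of cardiac muscle, and the 2 lists overlap, since Myh6 and Ryr2 are among the 7 lower induced targets and among the 5 lower cardiac markers given above. The part of this in the counts was not tested.

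Among the induced targets, the α-myosin gene Myh6 (29556) stood at -1.03 on the log2 scale (adjusted p = 1.97e-06, limma), with 374.0 to 476.0 FPKM in CON and 190.0 to 235.0 FPKM in HG. Ryr2 (689560), the calcium release channel, had -0.62 (adjusted p = 7.94e-05). Slc25a4 (85333), the mitochondrial carrier of adenine nucleotides, fell from 1954.0 ± 42.5 to 1327.2 ± 58.2 FPKM (SD over 5 libraries; log2 fold change -0.56, adjusted p = 1.81e-06). Nppa (24602), the atrial natriuretic peptide gene, rose from 1732.6 ± 262.0 to 2855.2 ± 509.0 FPKM (0.71 on the log2 scale, adjusted p = 0.000797). Klf9 (117560) and Hr (60563), which respond to the hormone in many tissues and were picked once their values were known, stood at -0.27 (adjusted p = 0.0456) and 0.07 (adjusted p = 0.829) on the log2 scale, the latter at -0.02 after quantile normalization.

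Among the repressed targets, the phospholamban gene Pln (64672), an inhibitor of the calcium pump, fell from 564.0 ± 24.8 to 405.0 ± 19.4 FPKM (SD over 5 libraries; log2 fold change -0.48, adjusted p = 8.53e-06, limma). The adenylyl cyclase gene Adcy5 (64532) fell from 18.6 ± 1.26 to 11.6 ± 1.08 FPKM (-0.67 on the log2 scale, adjusted p = 2.17e-05). In both genes the groups did not overlap, in either direction a feature of 27.4% of the genes tested. The β-myosin gene Myh7 (29557), singled out after its values were seen, fell from 2639.6 ± 106.0 to 2125.7 ± 147.0 FPKM (SD over 5 libraries; log2 fold change -0.31, adjusted p = 0.000751, limma).

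**Figure D3:**
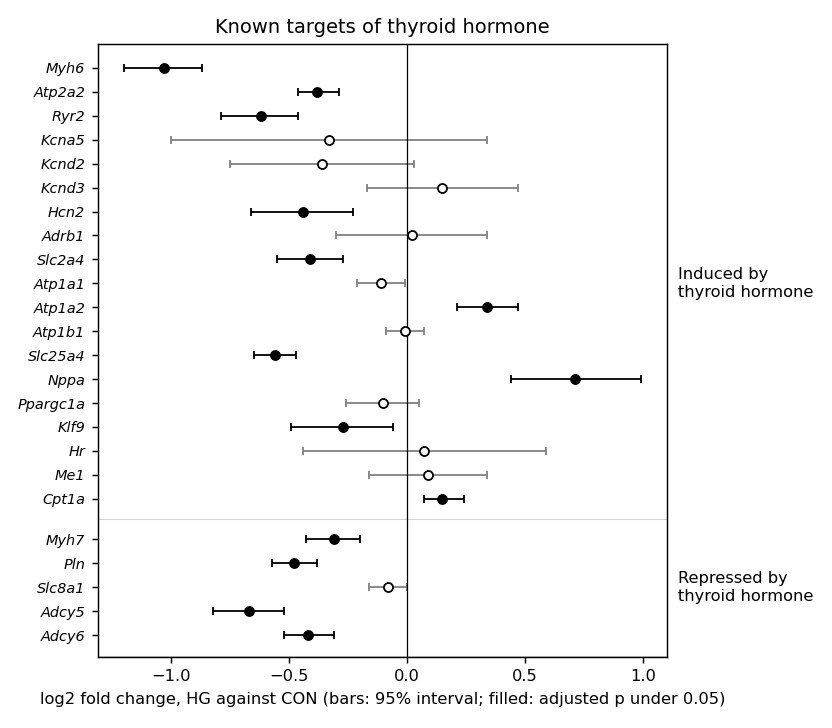
Log2 fold change of HG against CON (horizontal axis) with its 95% interval for 19 genes known to be induced and 5 known to be repressed by thyroid hormone; filled points have an adjusted p under 0.05. Filled points lie on the lower side for 7 of the induced and 4 of the repressed genes.

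The genes most like each member were sought by the root mean square difference of centred log2(FPKM + 0.1) over the 10 libraries. For Slc16a10, whose own spread on this measure was 0.204, the closest were Cox17 (0.0483), Uqcr11 (0.0512) and Pfkm (0.0529), which serve cytochrome c oxidase assembly, respiratory complex III and glycolysis. The measure takes in the shift between groups, so genes picked by it had to share the lower HG level of Slc16a10, and 146 genes lay within 0.1 of it. For Thra, with a spread of 0.0997, they were Gpam (0.0325), Gata5 (0.0399) and Ano10 (0.0443), with 735 genes within 0.1. Because that spread is itself under 0.1, a gene that did not vary at all would also lie within 0.1 of Thra. For Thrb the closest were Cmya5 (0.235), Ehhadh (0.238) and Parp4 (0.251), and for Dio2 Snx22 (0.213), Mybpc2 (0.215) and Cilp2 (0.222), beside own spreads of 0.503 and 0.378 and with 0 genes within 0.1 of either.

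**Figure D4:**
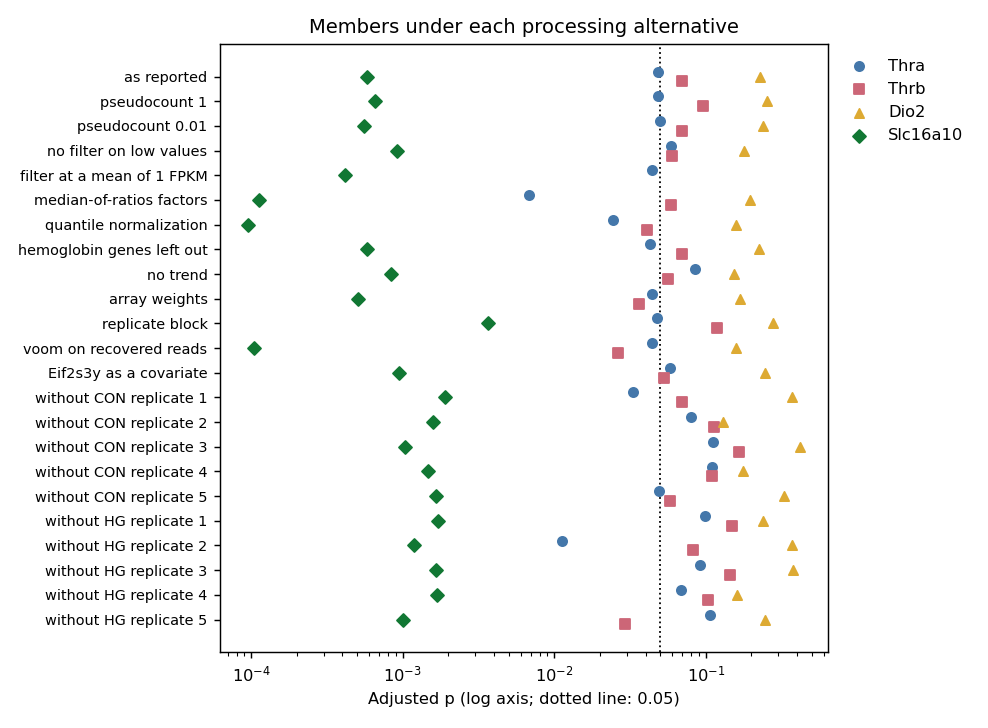
Adjusted p (horizontal axis, log scale; dotted line at 0.05) of the 4 members tested under each processing alternative (vertical axis). Slc16a10 stays between 9.49e-05 and 0.00364, Dio2 between 0.129 and 0.421, and Thra and Thrb lie on both sides of the line.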

How the data were processed

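Polyadenylated RNA of 5 CON and 5 HG fetal rat hearts was sequenced from stranded libraries, and the authors deposited FPKM, read numbers divided by gene length and library size. The submitters' notes name fastp, HISAT2, HTSeq, R 3.2.0 and the build mRatBN7.2, and the strand setting is not given in the sources used here. Columns were matched to samples by library name, with 0 columns unused. The methods name a count model, but the deposited values are FPKM. Genes averaging 0.1 FPKM or more were put on the log2(FPKM + 0.1) scale and tested by limma 3.58.1 (trend, no covariate) in R 4.3.3, and p-values were adjusted over all 14542 genes tested (Benjamini-Hochberg). For ratios the exact permutation test, two-sided, was run in scipy 1.17.1. Reads were recovered from the steps between FPKM values, whole within 0.02 reads for 100% of genes, and a simulation with known reads returned 99.4% of 3000 genes exactly. In simulated HG against CON data (14540 genes), 93 of 100 genes with a 2-fold change and 85 of 98 with a 1.5-fold change were called, as were 14 unchanged genes. The simulation gave every gene the same spread beyond counting error, and rises and falls in balance. Its rates need not hold for these data or for low genes such as Thrb and Dio2. Depth was 16672876 to 19109844 reads per library, at which Thrb, Dio2 and Dio3 had few reads.

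The members and gene lists were chosen with earlier results of these data known. Genes named are the members, genes of the lists called with an absolute log2 fold change above 0.5, the smallest p of each list, and the 3 genes most like each member. The fits were repeated with each library left out, with voom on recovered reads, with array weights, without the trend, with the replicate number as a block, without hemoglobin genes, after quantile normalization or median-of-ratios scaling, with 1 or 0.01 FPKM added, and with the filter removed or raised to 1 FPKM. Eif2s3y, a Y-linked gene above 1 FPKM in 2 libraries of each group, was added as a covariate after the data were seen. Of the planned comparisons, 1 is not reported here. Promoter windows came from RefSeq (GRCr8), which matched 5 of 5 members.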

Additional observations from a re-analysis of the deposited data

Results flagged for a closer look

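Among 42 groups of 5 libraries checked for a library far from the others, 2 had one, and chance gives about 1 in 20. Dio3 in CON was at 0.059 FPKM in replicate 4 and listed at 0 in the other 4 CON libraries, a difference of 2 reads. Ttr in CON was at 6.5 FPKM in replicate 3, while the next library was at 2.83 FPKM, and that replicate also held the highest albumin level (Alb, 34.9 FPKM).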

How the results depend on the processing

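The log2 fold change of Slc16a10 kept its direction and its call in 22 of 22 alternatives, and that of Dio2 stayed uncalled in 21 of 21. A filter at 1 FPKM gave no value for Thrb and Dio2. The log2 fold change of Thra kept its direction but lost its call with no filter on low values (-0.13, adjusted p = 0.0589), with no trend (-0.13, adjusted p = 0.0844) and with Eif2s3y as a covariate (-0.13, adjusted p = 0.0576, added after the data were seen), and ranged from -0.17 to -0.11 with 1 library left out. Thrb was called after quantile normalization (-0.77), with array weights (-0.76) and with voom on recovered reads (-1.22), and ranged from -0.82 to -0.50 with 1 library left out. The cause was not tested. The Thrb to Thra ratio ranged from -0.71 to -0.39 with 1 library left out. Of the other genes of the pathway, 6 were higher and 7 lower with median-of-ratios factors, and 7 were higher and 8 lower after quantile normalization. With no filter, 2 genes at the loci of members were lower, since Rtl1 was then tested. The numbers of targets called moved by no more than 1.5 times in the alternatives run, with 6 to 9 induced targets lower. Of the 14 list genes named by the rule above, 13 kept their call in all alternatives, the exception being Rxra. Genes named outside that rule, such as Klf9 (adjusted p = 0.0456, limma) and Slc7a5, were not followed one by one over all alternatives.

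Replicate numbers did not pair the libraries, since same-numbered libraries deviated from their group means with correlations of -0.126 to 0.108 and 1 of 10 libraries correlated best with its own number. With the replicate block the calls on members did not change, the adjusted p of Rxra was 0.0556, and 5096 of all genes were called in place of 5836. At this depth Thrb, Dio2 and Dio3 rest on few reads.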
